A study of Mus musculus with 17 samples.

Results

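Transforming growth factor β (TGF-β) is described here through 10 genes, namely the ligands *Tgfb1*, *Tgfb2* and *Tgfb3*, the receptors *Tgfbr1*, *Tgfbr2* and *Tgfbr3*, and the latent binding proteins *Ltbp1*, *Ltbp2*, *Ltbp3* and *Ltbp4*. They were taken by symbol from the 31053 genes of the count table, and all 10 were among the 14030 genes tested. The data are 17 bulk libraries of *Col1a1*-GFP+/CD31-/CD45- cardiac fibroblasts (CFs), sorted from infarcted hearts of C57BL/6 mice of genotype Collagen1a1-GFP+, aged 8 to 10 weeks, with 3 libraries each at 1, 2, 4 and 6 days post-infarction (dpi), 4 at 3 dpi and 1 at 5 dpi. Infarction was induced by permanent ligation of the left anterior descending coronary artery, so that every group carried both the reporter and the infarct, and hearts without infarction were not analysed here. GFP was driven by the *Col1a1* promoter, so the sort selected cells by a product of that promoter. The methods also name staining with the mEFSK4 antibody as a further or alternative criterion of the sort. The libraries of a day were called biological replicates in the methods, which do not give the number of mice per bulk library. Individual mice are named for cells of 3 and 5 dpi, but under the single-cell preparation.

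TGF-β is made as a dimer that stays bound to its own cleaved propeptide, and this latent complex is disulfide-linked to a latent TGF-β binding protein, which tethers it to fibronectin and fibrillin fibres of the extracellular matrix. Integrins and proteases release the ligand. The free ligand binds the type II receptor TGFBR2, which recruits and phosphorylates the type I receptor TGFBR1, and this kinase then phosphorylates SMAD2 and SMAD3. TGFBR3, or betaglycan, is a coreceptor that presents ligand, TGF-β2 above all, and whose shed form traps it. In the infarcted heart the pathway is best known for driving fibroblasts to make collagen and contractile proteins.

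The MARS-seq protocol reads the 3′ ends of poly-A transcripts, and counts of different genes are therefore not compared as levels. Total counts per library ranged from 8021815 to 22029938. Each of the 10 genes had between 119 and 63395 counts in every library, far above the floor of 3 counts, which corresponds to between 0.136 and 0.374 CPM (counts scaled to one common library total) and covers counting error only. A level below is log2 CPM after TMM scaling, with 2 as the prior count, and an error is the SD between the libraries of a day. Fold changes, their standard errors (SE) and adjusted p-values come from the quasi-likelihood test of edgeR, adjusted by Benjamini-Hochberg over all genes tested.

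The fibroblast markers *Col1a1*, *Col1a2*, *Pdgfra*, *Dcn*, *Tcf21* and *Ddr2* were counted in every library and summed to between 9830 and 28800 CPM. Among them, *Pdgfra* went from 289 to 335 CPM at 1 dpi to 91.8 to 165 CPM at 6 dpi. *Ddr2* went from 95.6 to 121 CPM to 39 to 75.1 CPM. *Col1a1* and *Col1a2* were higher at 6 than at 1 dpi without overlap, and *Dcn* and *Tcf21* overlapped between these days. Endothelial markers summed to at most 55.5 CPM and the CD45 gene *Ptprc* never exceeded 37 counts. The 5 mural markers, all with counts, summed to 20.4 to 59.4 CPM at 1 dpi, 35.9 to 53.6 CPM at 2 dpi, 42.3 to 96.0 CPM at 3 dpi and 42.1 to 122 CPM at 4 dpi, where the last 2 days overlapped. They were at 159 CPM at 5 dpi and 80.9 to 86.7 CPM at 6 dpi. Of these, *Rgs5* went from 5.98 to 15.6 CPM at 1 dpi to 30.3 to 40.1 CPM at 6 dpi and *Cspg4* from 1.37 to 5.90 CPM to 15.5 to 20.2 CPM, whereas *Kcnj8*, *Abcc9* and *Myh11* overlapped between these days. The part of mural cells in the results for *Tgfb3*, *Ltbp2*, *Acta2* and *Tagln* was not tested. The 4 mesothelial markers summed to at most 165 CPM in 16 libraries and to 444 CPM in replicate 2 of 6 dpi, which also had the highest *Tgfb1* and *Ltbp4*. Libraries did not all resemble their day. Replicate 2 of 3 dpi stood apart in *Tgfb1*, *Ltbp4* and *Col1a1*, replicate 3 of 4 dpi had the highest *Ltbp1*, *Ltbp4* and *Tgfbr1* and the lowest *Tgfb1* of its day, and replicate 3 of 6 dpi had less *Tgfb1* and *Ltbp4* than the others of its day. Sex-linked genes also split the days. *Xist* was at 71.7 to 255 CPM at 4 and 6 dpi and at most 0.142 CPM at 3 and 5 dpi, while 4 Y-linked genes together were at most 0.778 CPM at 4 and 6 dpi and at least 41.1 CPM at 2, 3 and 5 dpi. At 1 dpi replicate 1 had 208 CPM of *Xist* and 10.5 CPM of the Y-linked genes. Replicates 2 and 3 had 66.0 and 61.3 CPM of the Y-linked genes, with 20.9 and 3.2 CPM of *Xist*. At 2 dpi *Xist* was at 1.8 to 2.85 CPM. In the comparison of 4 with 3 dpi, the day and this sex-linked difference cannot be told apart. Nor can they in that of 6 with 1 dpi, but for replicate 1 of 1 dpi. That library alone of its day had more *Xist* than Y-linked counts. The 3 dpi libraries are named by a scheme of their own.

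Over the 6 days, 5 of the 10 genes changed, *Tgfb3*, *Tgfbr3*, *Ltbp2*, *Ltbp3* and *Ltbp4*, in a test that called 15.0% of all genes tested. No change over the course was called for *Tgfb1*, *Tgfb2*, *Tgfbr1*, *Tgfbr2* or *Ltbp1*. The ligand gene *Tgfb3* was higher in every library from 4 dpi on, and the receptor gene *Tgfbr3* was lower from 3 to 5 dpi, a call that 1 subset of libraries did not keep. Among the binding proteins, *Ltbp2* was higher from 4 dpi on and *Ltbp3* and *Ltbp4* were highest at 6 dpi. Whether genes of a class differed from each other in their course was not tested.

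**Figure D1:**
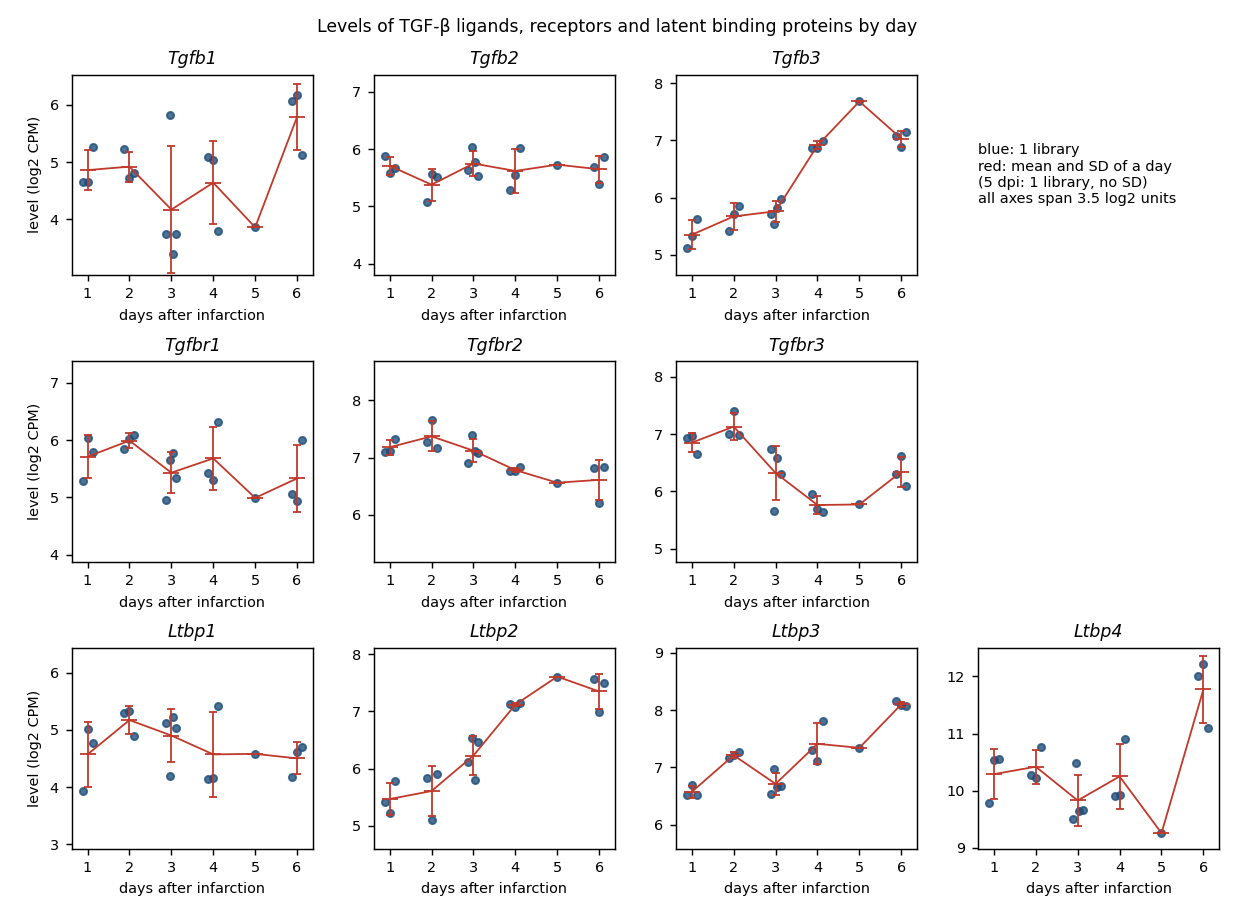
Level of each gene in log2 CPM (vertical axis, each spanning the same width) against days after infarction (horizontal axis). Blue points are libraries and red lines join the day means with their SD, with a single library and no SD at 5 dpi. *Tgfb3* and *Ltbp2* at 4 dpi lie above every 3 dpi library, and *Tgfb1* at 3 dpi spreads from 3.39 to 5.82.

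*Tgfb3*, on the minus strand of chromosome 12 from 86056745 to 86079041 (GRCm38, as are all positions of genes), encodes the TGF-β3 ligand. Its level was 5.12, 5.33 and 5.62 in the libraries of 1 dpi and 5.41, 5.72 and 5.86 in those of 2 dpi. At 3 dpi it was 5.72, 5.54, 5.81 and 5.97, at 4 dpi 6.87, 6.86 and 6.99, at 5 dpi 7.68 and at 6 dpi 7.07, 6.88 and 7.14. All libraries from 4 dpi on lay above all those up to 3 dpi, and within each of these spans neighbouring days with replicates overlapped. Between 3 and 4 dpi *Tgfb3* rose 2.21-fold (log2 fold change 1.14, SE 0.20, adjusted p 0.0054). From 1 to 6 dpi it rose 3.18-fold (log2 1.67, SE 0.22, adjusted p 1.1e-04), and the test over the course gave an adjusted p of 1.2e-05. Since these are bulk libraries, more cells that express a gene and more RNA per cell cannot be told apart, here and for every gene that follows.

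*Tgfb1*, on the plus strand of chromosome 7 from 25687002 to 25705077, encodes TGF-β1, the ligand most studied in fibrosis and one that leukocytes make as well. It was at 4.66, 4.65 and 5.26 at 1 dpi and at 5.22, 4.73 and 4.81 at 2 dpi. At 3 dpi it was at 3.74, 3.39 and 3.74 in replicates 1, 3 and 4 but at 5.82 in replicate 2. At 4 dpi it was at 5.09, 5.03 and 3.80, at 5 dpi at 3.86 and at 6 dpi at 6.07, 6.17 and 5.13. The 3 low libraries of 3 dpi lay below every library of 1 and 2 dpi, the other one above all of them, which gave 4.17 ± 1.11 (SD of 4 libraries) for the day.

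With all libraries and the filter on low counts, edgeR called no change of *Tgfb1* over the course (adjusted p 0.18) or in any comparison of days. Without replicate 2 of 3 dpi, the course was called (adjusted p 0.0011), as were the difference of 3 from 2 dpi (log2 -1.32, adjusted p 0.025), that of 4 from 3 dpi (log2 1.13, adjusted p 0.048) and those of 6 dpi from 4 dpi (log2 1.11, adjusted p 0.048) and from 1 dpi (log2 0.98, adjusted p 0.039). With every gene of at least 1 count in the fit, *Tgfb1* was called over the course (adjusted p 4.1e-05), at 6 against 4 dpi (adjusted p 0.012) and at 6 against 1 dpi (adjusted p 0.019), and the highest adjusted p of the course over all alternatives was 0.47. Leukocyte markers, of which 5 of 6 had counts at 3 dpi and *Cd3e* was at 0 in every library, summed to 39.7 CPM in replicate 1 of that day, 40.6 CPM in replicate 2 and 145 and 176 CPM in replicates 3 and 4. Most of the latter was *Lyz2*, at 119 and 138 CPM and at 3.61 CPM in replicate 2, whereas *Csf1r* was highest in replicate 2, at 28.7 CPM beside 7.05 to 20.9 CPM in the others. The part of leukocytes in the level of *Tgfb1* was not tested.

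*Tgfb2*, on the minus strand of chromosome 1 from 186622792 to 186705989, encodes TGF-β2, the ligand that depends most on betaglycan. Its libraries lay between 5.07 and 6.04 over the whole course, and its day means spanned only 0.37, against a median SD within a day of 0.24. No comparison of days was called, and the log2 fold change of 6 against 1 dpi was -0.05 with a 95% interval from -0.53 to 0.42. Its exons overlap the antisense gene *Gm29491*, and whether the counting used strand is not given in the sources used here.

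Because a share within a library is free of library scaling, the counts of each ligand were also divided by the counts of all 3. *Tgfb3* held 29.2%, 35.6% and 35.4% of ligand counts at 1 dpi and 61.7%, 59.3% and 61.8% at 4 dpi. It held 75.3% at 5 dpi and 53.1%, 50.8% and 60.3% at 6 dpi. Every library from 4 dpi on lay at or above 50.8%, and the highest earlier value was 51.1%, in replicate 4 of 3 dpi, so the spans overlap through that library. The share of *Tgfb2* moved the other way, from 36.9 to 49.7% at 1 dpi to 18.0 to 24.8% at 6 dpi, while its own level stayed within the spread. That of *Tgfb1* ranged from 8.55 to 33.5% at 3 dpi and from 14.9 to 31.2% at 6 dpi. Capture at the 3′ end differs between genes, so only the movement of a share is read, not its size against that of another gene.

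**Figure D2:**
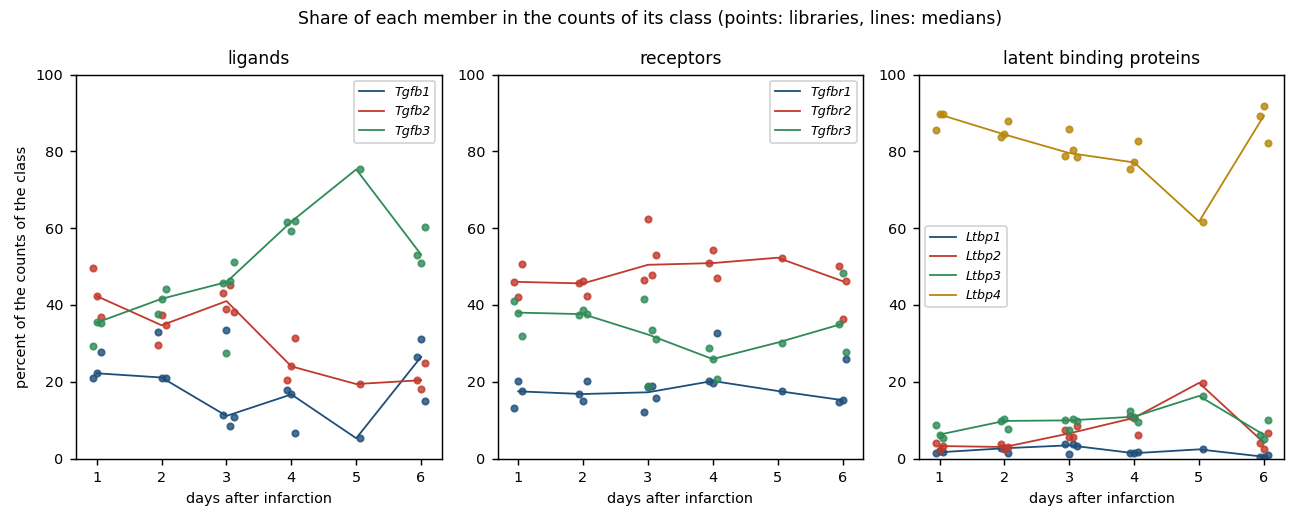
Percent of the counts of a class held by each gene (vertical axis, 0 to 100) against days after infarction, for ligands, receptors and latent binding proteins. Points are libraries and lines join the medians of a day. The share of *Tgfb3* goes from a median of 35.4% at 1 dpi to 61.7% at 4 dpi, and that of *Tgfbr3* is 37.5 to 38.7% at 2 dpi and 20.6 to 28.9% at 4 dpi.

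*Tgfbr3*, the betaglycan gene, lies on the minus strand of chromosome 5 from 107106570 to 107289629. Its level was 6.93, 6.96 and 6.66 at 1 dpi and 7.00, 7.40 and 6.99 at 2 dpi. It was 6.74, 5.66, 6.59 and 6.31 at 3 dpi, 5.95, 5.69 and 5.64 at 4 dpi, 5.77 at 5 dpi and 6.30, 6.61 and 6.10 at 6 dpi. All libraries of 2 dpi lay above all those of every later day, while 6 dpi lay above 4 dpi without overlap. In the mean of 3, 4 and 5 dpi against that of 1 and 2 dpi, *Tgfbr3* fell 2.04-fold (log2 fold change -1.03, SE 0.19, adjusted p 0.0018). The call was lost among the libraries with Y-linked counts above those of *Xist* (log2 -0.91, adjusted p 0.065). With all libraries edgeR called none of the steps between single days. The largest, from 2 to 3 dpi, had a log2 fold change of -0.77 with an adjusted p of 0.088, which ran from 0.04 with DESeq2 to 0.32 over the alternatives. At 4 against 3 dpi it was -0.61 with an adjusted p of 0.19, and without replicate 2 of 3 dpi it was -0.79 and called (adjusted p 0.031). For 6 against 4 dpi it was 0.58 with an adjusted p of 0.22.

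*Tgfbr1* on chromosome 4 (47353222 to 47414931, plus strand) encodes the signalling kinase and *Tgfbr2* on chromosome 9 (116084293 to 116175360, minus strand) the receptor that binds ligand first. *Tgfbr2* had its highest mean at 2 dpi, 7.37 ± 0.26 (SD of 3 libraries). Later means were 7.12 ± 0.20 at 3 dpi over 4 libraries, and 6.78 ± 0.04 at 4 dpi and 6.61 ± 0.35 at 6 dpi over 3 libraries each. Libraries of 3 and 4 dpi did not overlap, and neighbours on either side did. The course was not called (adjusted p 0.11 by edgeR), and this ranged from 0.026 with DESeq2 to 0.23 over the alternatives. *Tgfbr1* also had its highest mean at 2 dpi, 5.99 ± 0.13 (SD of 3 libraries), but its libraries spread from 5.30 to 6.31 at 4 dpi and from 4.94 to 6.00 at 6 dpi, and the course was not called (adjusted p 0.43). Of receptor counts, *Tgfbr3* held 31.9 to 40.9% at 1 dpi, 37.5 to 38.7% at 2 dpi and 20.6 to 28.9% at 4 dpi, so its 4 dpi libraries lay below all those of 1 and 2 dpi. At 3 and 6 dpi its share spread from 18.8 to 41.5% and from 27.8 to 48.4%. The share of *Tgfbr2* was 42.0 to 50.6% at 1 dpi, 42.3 to 46.3% at 2 dpi and 46.9 to 54.4% at 4 dpi, with overlap between 1 and 4 dpi but not between 2 and 4 dpi, and 36.4 to 50.1% at 6 dpi.

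*Ltbp2* is on the minus strand of chromosome 12 from 84783212 to 84876532, and its exons overlap the antisense gene *D030025P21Rik*. LTBP2 differs from the other members of its family in that it does not bind latent TGF-β and is known as a protein of elastic fibres and their microfibrils. Its level was 5.42, 5.22 and 5.78 at 1 dpi, 5.83, 5.10 and 5.90 at 2 dpi and 6.11, 6.53, 5.80 and 6.46 at 3 dpi. It was 7.13, 7.08 and 7.14 at 4 dpi, 7.61 at 5 dpi and 7.56, 6.99 and 7.50 at 6 dpi. As for *Tgfb3*, every library from 4 dpi on lay above every earlier one. *Ltbp2* rose 3.69-fold from 1 to 6 dpi (log2 fold change 1.88, SE 0.27, adjusted p 2.2e-04). The step from 3 to 4 dpi had a log2 fold change of 0.86 (SE 0.25) and an adjusted p of 0.066, which ran from 0.022 with DESeq2 to 0.17 without replicate 1 of 4 dpi.

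*Ltbp3*, on the plus strand of chromosome 19 from 5740904 to 5758532, encodes a binding protein that carries each of the latent ligands. The level was 6.51, 6.69 and 6.51 at 1 dpi, 7.17, 7.21 and 7.26 at 2 dpi and 6.53, 6.97, 6.66 and 6.68 at 3 dpi. It was 7.30, 7.11 and 7.81 at 4 dpi, 7.34 at 5 dpi and 8.15, 8.08 and 8.07 at 6 dpi. The libraries of 2 dpi lay above all those of 1 and 3 dpi, and those of 6 dpi above all others. Over the course the adjusted p was 5.6e-04, and from 1 to 6 dpi *Ltbp3* rose 2.88-fold (log2 fold change 1.53, SE 0.23, adjusted p 2.7e-04). The step between 1 and 2 dpi (log2 0.64, adjusted p 0.44) and that between 4 and 6 dpi (log2 0.67, adjusted p 0.12) were not called.

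*Ltbp4*, on the minus strand of chromosome 7 from 27305136 to 27337692, encodes a binding protein needed for the assembly of elastic fibres. It was at 9.78, 10.53 and 10.55 at 1 dpi, at 10.27, 10.23 and 10.76 at 2 dpi and at 9.51, 10.49, 9.64 and 9.67 at 3 dpi. It was at 9.91, 9.93 and 10.91 at 4 dpi, at 9.26 at 5 dpi and at 12, 12.22 and 11.10 at 6 dpi. All 6 dpi libraries lay above all others, and from 1 to 4 dpi the days overlapped. *Ltbp4* rose 2.86-fold from 1 to 6 dpi (log2 fold change 1.52, SE 0.37, adjusted p 0.012), but the call was lost without replicate 1 of 1 dpi (log2 1.29, adjusted p 0.075) and without replicate 2 of 6 dpi (log2 1.29, adjusted p 0.064).

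Against 4 dpi the log2 fold change of *Ltbp4* at 6 dpi was 1.52 with an adjusted p of 0.06. Without replicate 3 of 4 dpi, its highest library of that day, it was 1.94 (adjusted p 0.024), and without replicate 3 of 6 dpi it was 1.78 (adjusted p 0.0094). It was called in 5 of 23 alternatives, and without replicate 2 of 6 dpi the adjusted p was 0.3. Cardiomyocyte markers, all 5 of which had counts, summed to 74.2 to 161 CPM at 6 dpi, 36.3 to 61.5 CPM at 4 dpi and 17.3 to 36.7 CPM at 1 dpi, and their part in the rise of *Ltbp3* and *Ltbp4* was not tested. At 6 dpi, replicate 2 had the most of these markers (161 CPM) and the most *Ltbp4*, and replicate 3 had 151 CPM and the least *Ltbp4*. The cell preparation in the methods, described for 3 and 5 dpi, used a strainer to discard cardiomyocytes.

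*Ltbp1*, on the plus strand of chromosome 17 from 75005568 to 75392512, encodes the best known carrier of latent TGF-β1. Its day means ran from 5.17 ± 0.24 at 2 dpi down to 4.50 ± 0.28 at 6 dpi (SD of 3 libraries each), the libraries of neighbouring days overlapped, and the course was not called (adjusted p 0.59). Of the counts of all 4 binding proteins, *Ltbp1* held 0.392 to 0.969% at 6 dpi and 1.46 to 1.93% at 1 dpi. The share of *Ltbp2* went from between 2.25 and 4.16% at 1 dpi to a median of 10.6% at 4 dpi, with 6.02% in the lowest library, and 19.7% in the 5 dpi library, and was between 2.45 and 6.78% at 6 dpi. The level of *Ltbp2* itself at 6 dpi overlapped that at 4 dpi, and the share of *Ltbp4* was 82.2 to 91.9% at 6 dpi and 75.3 to 82.6% at 4 dpi.

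By day, the highest mean fell at 2 dpi for *Tgfbr1*, *Tgfbr2*, *Tgfbr3* and *Ltbp1*, at 3 dpi for *Tgfb2*, at 5 dpi for *Tgfb3* and *Ltbp2* and at 6 dpi for *Tgfb1*, *Ltbp3* and *Ltbp4*. The order is firm in few places. Neighbours in the order did not overlap between 4 and 3 dpi for *Tgfb3*, *Ltbp2* and *Tgfbr2*, between 2 and 1 dpi and between 1 and 6 dpi for *Tgfbr3*, between 6 and 4 dpi and between 2 and 3 dpi for *Ltbp3*, and between 6 and 2 dpi for *Ltbp4*. For *Tgfb2* the highest day moved to 1, 4, 5 or 6 dpi when single libraries were left out, and without the 5 dpi library it moved to 6 dpi for *Tgfb3* and *Ltbp2*.

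To set the middle of the course against its start, the mean of 3, 4 and 5 dpi was compared with that of 1 and 2 dpi. Of the 10 genes, 3 were called, where 7.48% of all genes were. *Tgfb3* and *Ltbp2* were higher, as were 5.25% of all genes, and *Tgfbr3* was lower, as were 2.24%. *Tgfb3* rose 2.40-fold (log2 fold change 1.26, SE 0.16, adjusted p 2.6e-05) and *Ltbp2* 2.68-fold (log2 1.42, SE 0.19, adjusted p 6.3e-05). The median log2 fold change of the 10 genes was -0.32, beside -0.001 for all genes tested. The single 5 dpi library is 1 of the 3 days averaged, and without it the log2 fold changes were 0.81 for *Tgfb3* (adjusted p 0.0019), 1.11 for *Ltbp2* (adjusted p 7.4e-04) and -0.93 for *Tgfbr3* (adjusted p 0.0027).

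The comparison was repeated on those libraries in which Y-linked counts exceeded those of *Xist*, which come from 1, 2, 3 and 5 dpi. The log2 fold change was then 1.15 for *Tgfb3* (adjusted p 0.0047) and 1.35 for *Ltbp2* (adjusted p 0.0081). No 4 dpi library is left in it, so that the later mean is that of 3 dpi and the single 5 dpi library, in which *Tgfb3* was at 7.68 and *Ltbp2* at 7.61. At 3 against 2 dpi the log2 fold change of *Tgfb3* was 0.09 (adjusted p 0.87), so the value of *Tgfb3* in this subset rests on the 5 dpi library. Without replicate 2 of 3 dpi, *Tgfb1* (log2 -0.84, adjusted p 0.027) and *Tgfbr2* (log2 -0.49, adjusted p 0.039) were called lower as well, which made 5 genes in all. DESeq2, with all libraries, called *Tgfbr2* lower too (log2 -0.45, adjusted p 0.049).

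**Figure D3:**
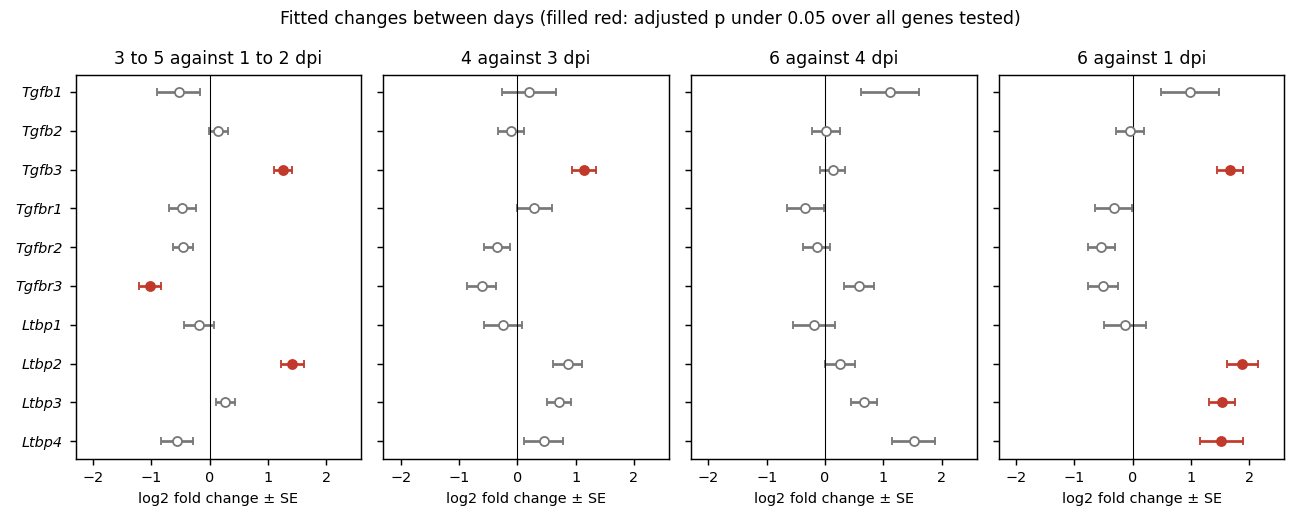
Fitted log2 fold change with its SE (horizontal axis) for each of the 10 genes in 4 comparisons of days. Filled red points passed an adjusted p of 0.05 over all genes tested. *Tgfb3* is called in 3 of the panels, *Ltbp2* in 2, and no gene in the comparison of 6 with 4 dpi.

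Between single days few of the 10 genes were called. At 2 against 1 dpi none was, by edgeR or DESeq2, with 1 gene, *Ltbp3*, at an unadjusted p under 0.05, and 0.178% of all genes called. At 3 against 2 dpi edgeR called none of the 10 and 2.94% of all genes (1.82% higher and 1.12% lower), 3 of the 10 had an unadjusted p under 0.05, and DESeq2 called *Tgfbr3*. At 4 against 3 dpi *Tgfb3* alone was called, beside 2.71% of all genes (1.63% higher and 1.08% lower), and DESeq2 also called *Ltbp2* and *Ltbp3*. Over all genes, the number called at 3 against 2 dpi was 412, but 46 without replicate 2 of 2 dpi and 734 without replicate 2 of 3 dpi. At 4 against 3 dpi it was 380, but 126 without replicate 2 of 4 dpi and 722 without replicate 2 of 3 dpi. Erythroid markers, both of which had counts, summed to 153 to 1510 CPM at 4 dpi and 1.30 to 15.9 CPM at 3 dpi. Cardiomyocyte markers were at 36.3 to 61.5 CPM and 5.90 to 10.7 CPM on these days, and leukocyte markers at 15.3 to 21.4 CPM and 39.7 to 176 CPM. None of the 3 sums overlapped between the days. Taken alone, each leukocyte marker with counts overlapped, as did the cardiomyocyte marker *Myh6*. The other cardiomyocyte markers and both erythroid markers did not overlap. The part of these lists in these differences was not tested. The preparation in the methods strained out cardiomyocytes and lysed erythrocytes, and the sort excluded CD45+ cells.

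At 6 against 4 dpi edgeR called none of the 10 and 0.513% of all genes, while 4 had an unadjusted p under 0.05 and DESeq2 called *Ltbp3* and *Ltbp4*. The 72 genes behind that share became 3 without replicate 2 of 4 dpi and 1402 without replicate 3 of 6 dpi, so this background depends on single libraries. These days share a sex-linked pattern. At 6 against 1 dpi 4 genes were called, *Tgfb3*, *Ltbp2*, *Ltbp3* and *Ltbp4*, all higher, beside 12.1% of all genes in either direction, 6.91% higher and 5.21% lower. The log2 fold change of *Tgfbr3* was then -0.51 (adjusted p 0.21) with a 95% interval from -1.02 to 0.00.

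SMAD proteins bind DNA at the short element CAGAC, or GTCTG on the other strand. It was searched in the RefSeq promoter windows (GRCm38.p6) that cover 250 to 51 bases before a start of transcription, of which 12 matched 8 of the genes, with none given for *Tgfb3* and *Tgfbr3*. The element was in 7 of the 12 windows, from 6 of the 8 genes, and 35.8% of 32851 windows of all genes hold it. The AP-1 element TGANTCA was in none of the 12 and in 5.57% of all windows, and the GC box GGGCGG, or CCGCCC, was in 6 of the 12, from 4 genes, and in 24.6% of all. The windows of *Ltbp2* (chr12:84876542-84876741, minus strand) and *Ltbp3* (chr19:5740650-5740849, plus strand) are shown because these are the genes that changed over the course and hold the element, which is in capitals, while the windows of *Ltbp4* lack it. A match is a string of letters and not a bound site.

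Ltbp2: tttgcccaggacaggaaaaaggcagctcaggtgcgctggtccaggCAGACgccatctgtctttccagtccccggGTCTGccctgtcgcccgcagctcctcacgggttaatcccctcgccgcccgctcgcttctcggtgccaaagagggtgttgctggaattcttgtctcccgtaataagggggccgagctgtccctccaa
Ltbp3: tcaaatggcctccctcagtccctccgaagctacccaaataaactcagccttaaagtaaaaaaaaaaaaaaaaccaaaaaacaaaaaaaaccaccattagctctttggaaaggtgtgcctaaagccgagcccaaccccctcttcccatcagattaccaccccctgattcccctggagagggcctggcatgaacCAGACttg

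For each of the 5 genes that changed, the other genes whose levels over the 17 libraries were most alike, among 8919 genes with a mean of at least 100 counts, are given by Pearson's r, as a description without a test, since libraries of a day share that day. *Tgfb3* was most like *Neo1* (r = 0.967), *Ddah1* (0.962) and *Scx* (0.961), which encode a guidance receptor, an enzyme that breaks down methylated arginine and a tendon transcription factor. *Scx* had a mean level of 2.05 at 3 dpi, 5.08 at 4 dpi and 6.70 at 5 dpi. *Ltbp2* was also most like *Ddah1* (0.959), then *Thbs4* (0.929) and *Mest* (0.921). *Thbs4*, a matrix thrombospondin, went from 5.05 at 1 dpi to 7.75 at 4 dpi and 8.77 at 6 dpi.

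*Ltbp3* was most like *Arap1* (0.956) and the microfibril genes *Mfap2* (0.949) and *Mfap4* (0.934). *Mfap4* had its highest mean, 10.33, at 6 dpi as *Ltbp3* did. The genes nearest to *Ltbp4* were *Plbd2* (0.948), *Dchs1* (0.938) and *Apoe* (0.936), each with its highest day mean at 6 dpi. For *Tgfbr3* the nearest were *Dapk1* (0.863), *Ssh2* (0.847) and *Ksr1* (0.847), all lower at 4 dpi than at 1 and 2 dpi.

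The other genes of the pathway were taken from lists by role, with 41 of 42 tested and the integrin gene *Itgb6* too low to test. In the window of 3 to 5 against 1 to 2 dpi, 11 of the 41 were called, 9 higher and 2 lower, beside 7.48% of all genes. Their median log2 fold change was 0.41, beside -0.001 for all genes. Over the course, 19 of the 41 were called, beside 15.0% of all genes. Of those named next, *Fn1*, *Fbn2*, *Aspn* and *Tagln* overlap exons of genes on the opposite strand.

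Of 12 genes that release or process the latent complex, 1 was higher and 1 lower in the window. *Mmp14*, a membrane protease that can activate latent TGF-β, rose (log2 0.67, SE 0.20, adjusted p 0.047), although its course was not called (adjusted p 0.18). *Lrrc32*, which encodes GARP, a cell surface protein that holds latent TGF-β in place of a binding protein, fell (log2 -1.32, SE 0.21, adjusted p 4.1e-04). The level of *Lrrc32* was 6.96 to 7.55 at 1 dpi, 5.69 to 6.09 at 3 dpi and 6.58 to 7.28 at 6 dpi, so the last and the first day overlapped. *Itgb5*, a partner of the αv integrin, was called over the course (adjusted p 1.9e-04) and went from a mean of 6.68 at 1 dpi to 8.58 at 6 dpi. *Mmp2*, a gelatinase, was called over the course as well (adjusted p 0.021), with means between 8.45 at 3 dpi and 9.67 at 6 dpi.

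Of 4 matrix anchors, 2 were higher and none lower. *Fn1*, fibronectin, to which latent complexes attach first, rose by 3.21 on the log2 scale (SE 0.26, adjusted p 2.4e-07), with levels of 7.35 to 7.85 at 1 dpi and at least 10.62, with a mean of 10.86, at 3 dpi. *Fbn2*, a fibrillin of developing tissue, rose by 1.16 (SE 0.24, adjusted p 0.0041). In contrast to *Tgfb3* and *Ltbp2*, *Fn1* was already called at 3 against 2 dpi (log2 2.25, adjusted p 0.0024), but the difference between these genes was not tested.

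Of 5 extracellular binders and coreceptors, 1 was higher in the window and 3 were called over the course. *Fmod*, fibromodulin, a small proteoglycan that binds TGF-β, rose by 1.48 (SE 0.29, adjusted p 0.0022) and had mean levels of 3.51 at 1 dpi, 2.58 at 3 dpi, 5.42 at 4 dpi and 8.06 at 6 dpi. *Aspn*, asporin, had means of 5.89, 7.61, 6.35 and 8.42 on the first 4 days and 8.01 at 6 dpi (adjusted p 0.0021 over the course). *Bgn*, biglycan, rose from 1 to 6 dpi (log2 1.45, adjusted p 0.003). These 3 proteoglycan genes were called higher at 6 than at 1 dpi, whereas *Dcn*, decorin, of the same list had a log2 fold change of -0.43 (adjusted p 0.43).

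Of 12 SMAD genes and regulators, 1 was higher and 1 lower in the window. *Smad3*, which carries the signal to the nucleus, fell (log2 -0.85, SE 0.19, adjusted p 0.0062), and its means were 5.93 at 1 dpi, 4.69 at 3 dpi and 5.54 at 6 dpi. *Smad6*, an inhibitory SMAD better known for the BMP branch, rose (log2 0.86, SE 0.20, adjusted p 0.0098). *Smad7*, the inhibitory SMAD that TGF-β itself induces, was higher at 3 than at 2 dpi (log2 1.42, adjusted p 0.0039) and lower at 4 than at 3 dpi (log2 -1.16, adjusted p 0.011). *Ski*, a corepressor of SMADs, was higher at 6 than at 1 dpi (log2 0.91, adjusted p 0.02).

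Of 8 target genes, 4 were higher in the window and none lower. *Acta2*, smooth muscle actin, rose by 2.66 (SE 0.25), *Tagln*, transgelin, by 1.80 (SE 0.25) and the collagen gene *Col1a2* by 1.56 (SE 0.22), all on the log2 scale and with adjusted p of at most 1.0e-04. *Col1a1* was the fourth (log2 1.64, SE 0.27, adjusted p 6.1e-04), named because its promoter drives the reporter by which the cells were sorted. *Acta2* had means of 7.37 at 2 dpi, 9.57 at 3 dpi and 8.70 at 6 dpi.

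**Figure D4:**
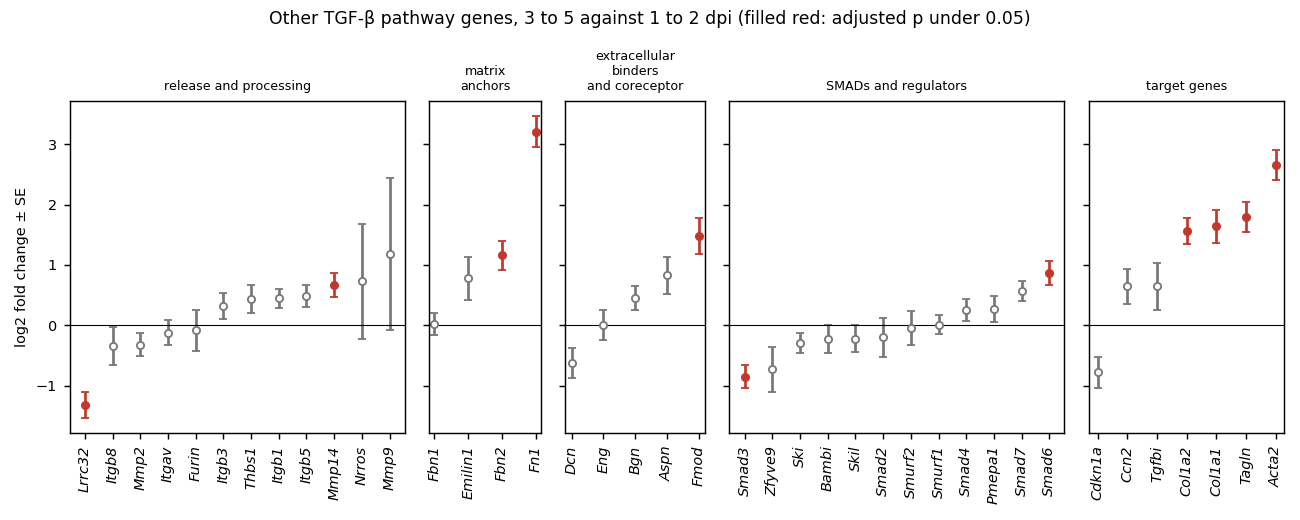
Log2 fold change of 3 to 5 against 1 to 2 dpi with its SE (vertical axis) for 40 of the 41 other pathway genes tested, by list and in rising order. Filled red points passed an adjusted p of 0.05 over all genes tested. *Fn1* and *Acta2* have the largest rises, and *Lrrc32* and *Smad3* are the 2 genes called lower.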

How the data were processed

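Bulk MARS-seq libraries of sorted CFs were analysed from 1 to 6 dpi. Per the methods, the authors used bcl2fastq (1.2.4) for demultiplexing, STAR for alignment to mm10 and featureCounts for counting by gene. The table they deposited holds raw counts that were not normalized, and no removal of PCR copies is named, so that depth gives counting error only. The submitters' notes also name DESeq2, which the study used for testing. Whether counting used strand is not given in the sources used here, nor is the number of mice per bulk library on any day. The title of the 5 dpi library numbers it 3 and its description 1, and the title was used.

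The 10 genes and the pathway lists were chosen with earlier results of these data known. Counts were read with pandas (2.3.3, Python 3.11.15), and a gene was tested if 3 or more libraries had 10 or more counts of it, in R (4.3.3) with edgeR (4.0.16). The fit used TMM, day as a factor of 6 levels and all 17 libraries, which share 1 estimate of the spread, and its calls are at an adjusted p under 0.05. SEs were taken as the absolute log2 fold change divided by the square root of F. No 2 replicates agreed within sampling noise, as chi-square over its degrees of freedom was 21.83 to 212.55 in 18 pairs. Tested on simulated counts for the comparison of 3 to 5 with 1 to 2 dpi (13695 genes), the edgeR test recovered 51% of genes with a true log2 change of 1. Where the change was 2 it recovered 99%, and it called 4 unchanged genes. DESeq2 recovered 69% and 100% of the changed genes and called 36 unchanged ones.

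Of each pathway list, up to 3 called genes with the smallest p were named for the window and for the course, and for each of the genes called over the course the 3 most alike genes. Gene positions are from GENCODE vM21. Some items, 1 pathway gene among them, are not reported here. Alternatives were DESeq2 (1.42.0), its size factors in edgeR, other filters on low counts, the replicate number as a block, subsets of days and libraries, and each library left out in turn. Figures were drawn with matplotlib (3.10.9).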

Additional observations from a re-analysis of the deposited data

Results flagged for a closer look

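Dixon's ratio, the gap of an extreme library to its neighbour over the range, was taken at 3 dpi for 20 measures, since other days have too few libraries. It passed its 95% critical value in 4 of them, all in replicate 2, where chance would give about 1 if the measures were independent. They are not, as the level and the share of a gene use the same counts. No conclusion on chance is drawn from this number. In replicate 2 the *Tgfb1* level was 5.82 log2 CPM, with 3.74 the next, and *Tgfb1* held 33.5% of its ligand counts, with 11.4% the next. The level of *Ltbp4* was 10.49, with 9.67 the next. The share of *Ltbp3* among the binding proteins was the lowest of the day at 7.50%, with 9.88% the next, although its level of 6.97 was the highest of the day. The same library had 14800 CPM of *Col1a1*, beside 5160 to 6640 CPM in the other 3.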

How the results depend on the processing

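Of the 10 genes, *Tgfb3* and *Ltbp2* were called in the window of 3 to 5 against 1 to 2 dpi under all 25 alternatives, and *Tgfbr3* under 24. Leaving out single libraries gave 3 to 5 genes called in that window, 0 to 1 at 3 against 2 dpi, 1 to 5 at 4 against 3 dpi and 0 to 2 at 6 against 4 dpi. The upper ends of all 4 ranges, in which *Tgfb1* was called, came without replicate 2 of 3 dpi. At 6 against 4 dpi, 1 gene, *Ltbp4*, was called without replicate 3 of 4 dpi or of 6 dpi. Over all genes, the number called was 1307 to 3466 for the course (2099 with all libraries), 780 to 1601 for the window (1050) and 763 to 2577 at 6 against 1 dpi (1700), with the upper ends without replicate 2 of 3 dpi or, at 6 against 1 dpi, replicate 3 of 6 dpi, and the lower ends without replicate 1 of 6 dpi, replicate 2 of 2 dpi and replicate 2 of 6 dpi. DESeq2 called 4 genes in the window, with *Tgfbr2* added, 1 at 3 against 2 dpi, 3 at 4 against 3 dpi and 2 at 6 against 4 dpi. With every gene of at least 1 count in the fit, 2 genes, *Tgfb1* and *Ltbp4*, were called at 6 against 4 dpi; the cause was not tested. Some signs turned, none of them of a difference called with all libraries, and no fit with a turned sign was called. Of the differences that turned in some fit, only *Tgfb1* at 4 against 3 dpi was called in another. That fit, without replicate 2 of 3 dpi, kept the sign of the fit with all libraries. Leaving out single libraries, the log2 fold change of *Tgfb1* ran from -0.12 to 0.28 at 2 against 1 dpi and from -0.05 to 1.13 at 4 against 3 dpi, and that of *Ltbp4* from -0.10 to 0.23 at 2 against 1 dpi. *Tgfb3* ran from -0.04 to 0.19 at 3 against 2 dpi. *Tgfb2* ran from -0.35 to 0.04 at 4 against 3 dpi, from -0.14 to 0.26 at 6 against 4 dpi and from -0.17 to 0.07 at 6 against 1 dpi. *Tgfbr1* ran from -0.10 to 0.47 at 4 against 3 dpi and from -0.75 to 0.07 at 6 against 4 dpi, and *Tgfbr2* from -0.25 to 0.03 at 6 against 4 dpi. *Ltbp1* ran from -0.41 to 0.38 at 6 against 4 dpi and from -0.40 to 0.08 at 6 against 1 dpi. Replicate numbers did not pair the libraries, with a mean correlation of deviations of 0.011 over 30 pairs of the same number, and 4 of 16 libraries correlated best with their own number. The replicate block changed no call among the 10 genes, and turned *Tgfb1* at 2 against 1 dpi to -0.02. Each of these genes had at least 119 counts in every library, but no removal of PCR copies is named. Whether depth limited these genes was not tested. The day 5 dpi has 1 library and was not tested alone.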
